A study of Mus musculus with 18 samples.

Results

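Cortex from 3 wild-type and 3 Brca1 conditional knockout mice at postnatal day 7 was compared on the Affymetrix array titled A Chip. The samples were chosen by their titles and are 6 of the 18 of the series, 3 of each genotype, compared within their own table. What was tested were the probe sets, groups of short probes that read a transcript together, that listed a signal on at least 2 arrays of each genotype, with the control probe sets left out. They number 12065 of the 22626 probe sets on the chip, and the 3 tables of the series hold 90174. Those with a single gene symbol stand for 7275 genes. The knockout animals had 2 altered Brca1 alleles: a floxed allele, from which Cre removes exons 5 to 13, and a null allele in which exon 11 holds a neo cassette in inverted orientation. Their Cre was expressed from nestin sequences. For the wild-type animals the labels give the genotype and no more, so whether they carried Cre or a floxed allele is not stated. Each array read cortex tissue as a whole, and in such bulk tissue fewer cells of a type and less RNA per cell cannot be told apart.

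Brca1 encodes a nuclear protein that repairs DNA double-strand breaks by homologous recombination and that acts in cell cycle checkpoints. Its loss from dividing neural progenitors is known to kill many of them and to leave a small brain. Nestin-driven Cre acts in the progenitors of neurons, astrocytes and oligodendrocytes, while microglia and the fibroblasts of the meninges, the membranes around the brain, arise outside that lineage. Cortical interneurons migrate in from the ventral forebrain, and myelin, the lipid sheath that oligodendrocytes wrap around axons, is only beginning to form in the cortex at this age.

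Between 54% and 58% of the probe sets had a signal on each array, and the other cells were blank. That share averaged 55.9% in wild type and 56% in knockout, and the 3' over 5' ratio of actin, which rises as RNA degrades, averaged 1.44 and 1.45 (exact two-sided permutation p = 1 for both, where 0.1 is the lowest possible). All 4 cortical neuron markers on the chip, Neurod6, Tbr1, Cux1 and Fezf2, were listed on 6 arrays, and all 4 hindbrain and spinal cord markers on it were blank throughout. Of 6 cerebellum markers 2 were listed on 6 arrays and 1 was blank throughout. Gabra6 (64.9) and Pvalb (98.9) were listed on wild-type replicate 3 alone. Pcp2 read 145.3 on that array and 74.6 on knockout replicate 2, and was blank elsewhere. The Brca1 probe set with values read 38.1, 37.1 and 48.8 in wild-type and 51.4, 43.9 and 61.2 in knockout cortex. The groups overlap, and the log2 change, given throughout as knockout minus wild type, was 0.33 (SE 0.214, limma adjusted p = 0.499). The other 3 Brca1 probe sets were blank on all arrays, and the exon each reads is not given in the sources used here, so the deletion was not checked by these values. Xist, which silences an X chromosome in females, read 2855.3, 2678.1 and 2849.0 in wild type, and 54.3, blank and 2178.7 in knockout replicates 1, 2 and 3. The Y-linked genes Eif2s3y (154.9 and 191.7), Kdm5d (113.5 and 104.2) and Uty (63.3 and 77.8) were listed only in knockout replicates 1 and 2. Genotype and sex therefore overlap in all arrays but knockout replicate 3, and many counts below are also given from a fit with a term for the 2 arrays that listed Y-linked genes.

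In knockout cortex, 271 probe sets were higher (2.25% of those tested) and 88 were lower (0.729%), together 2.98%, at an adjusted p under 0.05. By symbol, 212 genes rose and 60 fell. The calls on the 2 sides differed in size: 87 rises and 21 falls were over 2-fold, while 37 of the falls and 51 of the rises were under 1.5-fold. All 258 called rises and all 82 called falls that were listed on 6 arrays had groups that do not overlap; among the 11005 probe sets listed on 6 arrays, 10.6% had all knockout values above the wild-type values and 11.2% had them below. The median log2 change over all probe sets was -0.02, the median SE 0.135 and the smallest change called 0.30. Rises outnumbered falls at every level of signal, by 51 to 6 in the dimmest of 4 equal bins of the probe sets and by 61 to 33 in the brightest. Without wild-type replicate 1 the counts were 187 up and 37 down, without knockout replicate 2 they were 137 and 44, without knockout replicate 1 they were 203 and 51, and without knockout replicate 3 they were 180 and 62. With the sex-marker term 61 were up and 20 down, and 357 of the called probe sets could be fitted and kept their direction; knockout replicate 3 is then the lone array that carries the difference, and it had entered the first calls too.

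**Figure D1:**
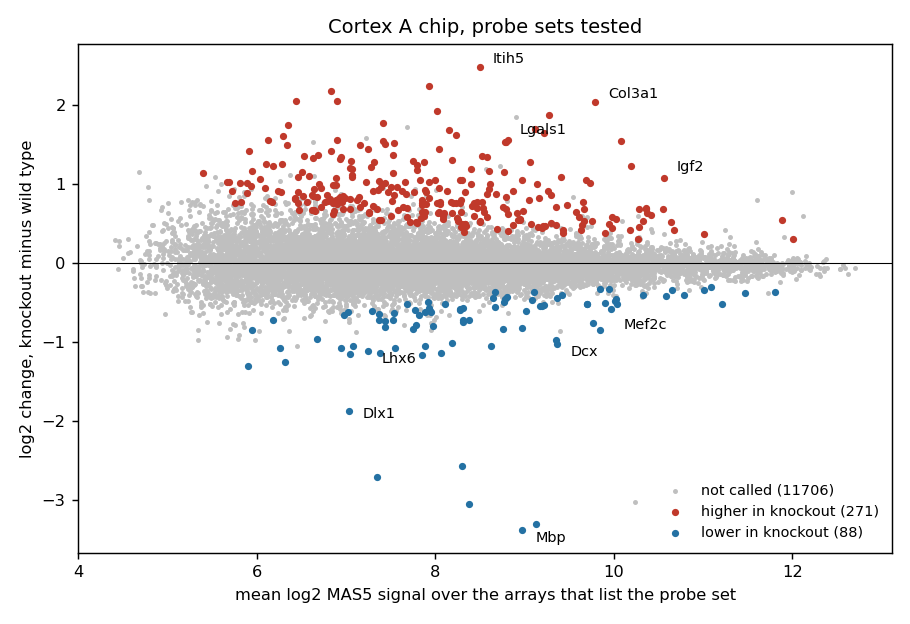
Each point is a probe set, with its mean log2 signal on the x axis and its log2 change, knockout minus wild type, on the y axis; red marks the 271 called higher, blue the 88 called lower and grey those not called. The rises reach 2.48 (Itih5) and spread over all signal levels. Of the 5 called falls over 4-fold, 4 are probe sets of Mbp and the other has no single gene symbol. The fall of Dlx1 (-1.86) is smaller than these.

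Among the largest rises were genes for extracellular matrix and genes secreted by connective tissue cells. Itih5, whose product binds the matrix polymer hyaluronan, read 158.8, 131.5 and 170.4 in wild type and 780.4, 879.8 and 899.0 in knockout. Its log2 change was 2.48 (SE 0.117, limma adjusted p = 3.35e-06), and every knockout array stood above every wild-type array. Cxcl12, a chemokine that guides migrating neurons and blood cells, read 119.6, 88.7 and 134.3 against 625.4, 613.5 and 387.6. This was a change of 2.24 (SE 0.203, limma adjusted p = 0.000194), and its other called probe set, which is brighter, changed by 1.70. Pcolce, a protein that enhances the trimming of procollagen, rose by 2.18, and the collagen genes Col4a5, Col3a1, Col1a1, Col6a3, Col1a2 and Col18a1 by 2.05, 2.04, 1.87, 1.77, 1.64 and 1.56. Tgfbi (1.75), Bgn (1.68), Islr (1.62), the apolipoprotein gene Apod (1.55), the actin-binding Svil (1.54) and the galectin Lgals1 (1.54) complete the 15 largest rises listed on 6 arrays. Groups that do not overlap were a condition of that choice. Limma adjusted p lay between 3.35e-06 and 0.00165 for all 15. Of these, Col1a1 alone lost its call under an alternative, with the sex-marker term (limma adjusted p = 0.0625).

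Among the largest falls were genes of oligodendrocytes, interneurons and young neurons. Mbp, a main protein of myelin, read 1817.1, 1350.2 and 1700.4 in wild type and 102.0, 265.2 and 139.3 in knockout, which is a 10.3-fold fall (log2 change -3.37, SE 0.274, limma adjusted p = 0.000103). The other 3 Mbp probe sets changed by -3.30, -3.05 and -2.56, and all 4 were called. Cnp, a myelin enzyme, read 465.7, 349.7 and 386.8 against 157.1, 220.0 and 171.3 (log2 change -1.14, SE 0.151, limma adjusted p = 0.00212). In both genes knockout replicate 2 read highest of the knockout arrays. A further Cnp probe set was called (-1.05) and the brightest was not (-0.41, limma adjusted p = 0.139). The next falls were Nxph1, a ligand of neurexins (-1.13), Lhx6, a transcription factor of interneurons (-1.11), Tmtc4 (-1.08), the neurogenic factor Neurod1 (-1.07), the proto-oncogene Mycn (-1.07), Gucy1a1, a subunit of the nitric oxide receptor (-1.04), Npnt (-1.04), Dcx (-1.03), the chemokine Cxcl14 (-1.01), the cannabinoid receptor gene Cnr1 (-0.85), Pisd-ps3 (-0.85), the synaptic vesicle gene Synpr (-0.83) and St8sia2 (-0.82). Their limma adjusted p lay between 0.00206 and 0.035. The brighter Neurod1 probe set was not called (-0.84, limma adjusted p = 0.17). Of 4 tested Npnt probe sets 2 were called. The others, whose groups overlap, changed by -0.35 and -0.64 (limma adjusted p = 0.45 and 0.294). Groups that do not overlap were a condition for choosing all 15 falls, so the lack of overlap is no result.

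Several of these calls depended on single arrays or on the sex-marker term. With the sex-marker term, where knockout replicate 3 alone carries the difference, all of the 15 probe sets but those of Mbp, Nxph1 and Lhx6 lost their calls. For Cnp and Tmtc4 this holds for the probe sets named above, which changed by -1.22 and -1.03 with the term. Another probe set of each kept its call, with changes of -1.14 and -0.92. Dcx changed by -0.57 with that term (limma adjusted p = 0.157), and its lowest array was knockout replicate 2 at 360.2 and its highest knockout array replicate 3 at 634.0. Neurod1 was lost without wild-type replicate 1 or without any 1 of the 3 knockout arrays (limma adjusted p up to 0.125, and 0.197 with the sex-marker term). Cnr1 was lost without each array but wild-type replicate 3 (up to 0.126, and 0.238 with the term), and Pisd-ps3 without wild-type replicate 1 or 3 or knockout replicate 2 or 3 (up to 0.0957, and 0.304 with the term). Neurod1 read 415.9 in wild-type replicate 3 and 240.8 and 200.6 in the others, so the wild-type arrays themselves differ widely. Wild-type replicate 3 was also the lone array to list the cerebellum markers Gabra6 and Pvalb. The part of such tissue in the Neurod1 fall was not tested.

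**Figure D2:**
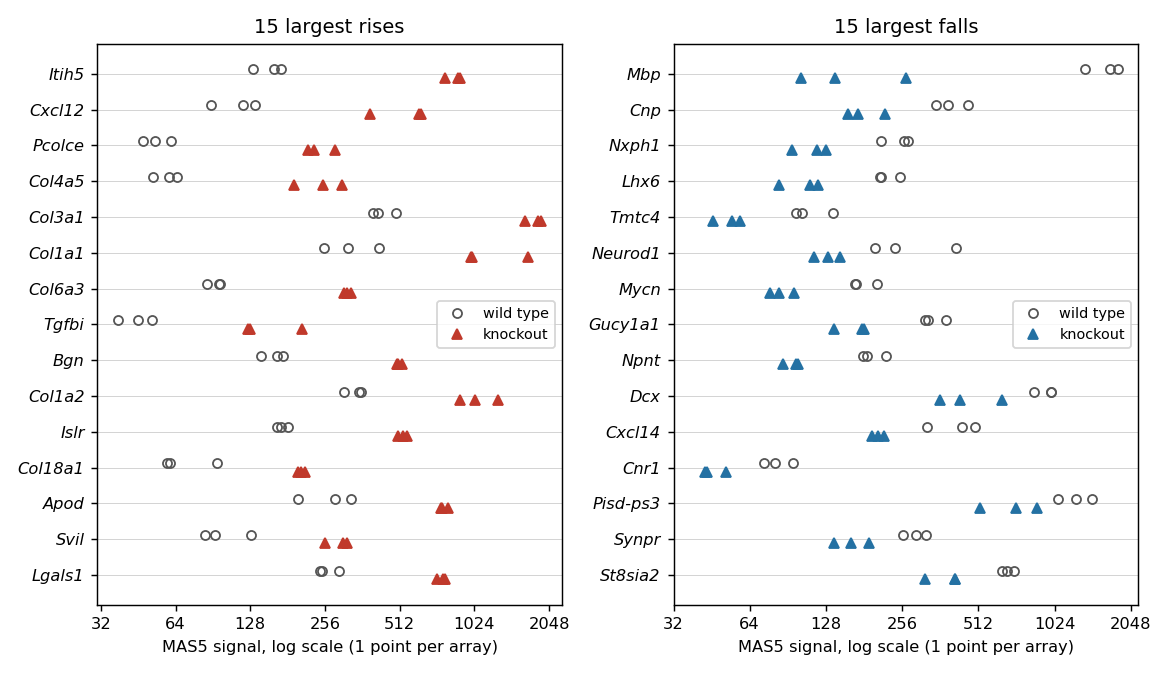
MAS5 signal on a log2-spaced x axis for the 15 largest rises (left) and the 15 largest falls (right), with an open circle for each wild-type and a triangle for each knockout array. The genes were chosen with groups that do not overlap. The knockout signals of Mbp (102.0 to 265.2) lie farthest from those of wild type (1350.2 to 1817.1).

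The promoters of 5 of the genes with large changes are printed, 3 of genes that rose (Itih5, Cxcl12 and Col3a1) and 2 of genes that fell (Cnp and Dlx1), to show how the sequences differ within and between the groups. Each is the 250 bases before the annotated start, 5' to 3' on the gene's strand, from RefSeq on GRCm38.p6; capitals mark matches, on either strand and counted where they overlap, to the GC box GGGCGG (or CCGCCC), to CCAAT and to the TATA box TATAAA. They lie at chr2:10153293-10153542 (Itih5), chr6:117168285-117168534 (Cxcl12), chr1:45311288-45311537 (Col3a1), chr11:100574689-100574938 (Cnp) and chr2:71529195-71529444 (Dlx1), all on the plus strand.
Itih5: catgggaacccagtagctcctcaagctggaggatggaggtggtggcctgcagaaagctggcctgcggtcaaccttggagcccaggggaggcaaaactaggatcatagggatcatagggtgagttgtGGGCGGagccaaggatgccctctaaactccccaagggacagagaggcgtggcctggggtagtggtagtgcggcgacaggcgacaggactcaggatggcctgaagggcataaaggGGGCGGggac
Cxcl12: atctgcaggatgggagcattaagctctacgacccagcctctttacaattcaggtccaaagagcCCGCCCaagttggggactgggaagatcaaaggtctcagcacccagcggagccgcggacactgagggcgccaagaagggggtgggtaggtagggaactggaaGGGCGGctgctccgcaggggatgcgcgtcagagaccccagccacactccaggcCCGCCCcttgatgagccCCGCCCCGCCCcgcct
Col3a1: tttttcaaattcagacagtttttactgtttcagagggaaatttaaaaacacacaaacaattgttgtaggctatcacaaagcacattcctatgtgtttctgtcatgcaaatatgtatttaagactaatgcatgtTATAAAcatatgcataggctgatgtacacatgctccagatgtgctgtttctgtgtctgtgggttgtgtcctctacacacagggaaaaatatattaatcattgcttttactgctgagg
Cnp: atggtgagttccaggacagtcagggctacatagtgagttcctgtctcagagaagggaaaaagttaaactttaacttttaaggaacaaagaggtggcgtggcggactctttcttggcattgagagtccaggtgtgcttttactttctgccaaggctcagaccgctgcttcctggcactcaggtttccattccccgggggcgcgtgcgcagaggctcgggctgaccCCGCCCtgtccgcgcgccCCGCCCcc
Dlx1: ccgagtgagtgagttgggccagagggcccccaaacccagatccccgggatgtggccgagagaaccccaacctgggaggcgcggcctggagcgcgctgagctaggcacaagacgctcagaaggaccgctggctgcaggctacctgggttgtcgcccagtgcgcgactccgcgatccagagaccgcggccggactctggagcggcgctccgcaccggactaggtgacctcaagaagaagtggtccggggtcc
Cxcl12 has 5 GC boxes, Itih5 and Cnp 2 each, Col3a1 a TATA box and no GC box, and Dlx1 none of the 3 motifs. Col3a1 is the poorest of the 5 in G and C (35.2%) and Dlx1 the richest (68%). The GC box was in 56.2% of the promoters of 162 genes that rose and 64.3% of those of 42 that fell, against 62.6% of 5947 tested genes and 32.9% of all 27025 promoters. The TATA box was in 11.7%, 11.9%, 5.78% and 13%, and CCAAT in 39.5%, 38.1%, 36.4% and 34.5%. These are letters in a window and not sites of binding.

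Most of the collagens tested were called higher. In the counts that follow, each gene is read by 1 probe set, that listed on most arrays and then the brightest; of the 7275 genes tested this way, 3.35% were called, 2.67% higher and 0.687% lower, and the median log2 change was -0.02. Of 11 fibrillar and network collagen genes 7 rose and 0 fell, and the median was 1.17. Col3a1, which makes the fine fibres of soft tissue, read 401.2, 418.3 and 492.8 in wild type and 1895.6, 1844.2 and 1643.0 in knockout. Col1a2, a chain of the main collagen of skin and bone, read 656.3, 585.8 and 666.0 against 2194.5, 1714.7 and 1687.7 with its brighter probe set (log2 change 1.54). The 3 chains of collagen VI that were tested, Col6a1, Col6a2 and Col6a3, changed by 1.17, 0.88 and 1.77. Col14a1 was blank in wild type and read 54.6, 65.1 and 45.6 in knockout, so it had no fold change. All 7 kept the call whichever array was left out, and 5 kept it with the sex-marker term. Of 13 genes that process and crosslink collagen 4 rose (median 0.45): Lox, which crosslinks collagen and elastin (1.33), Pcolce (1.30 by its brighter probe set), the collagen chaperone Serpinh1 (1.16) and Crtap (0.67). Among the alternatives, Lox lost its call with the sex-marker term alone. Crtap lost its call without wild-type replicate 2 or 3 or knockout replicate 2 or 3 (limma adjusted p up to 0.148, and 0.182 with the sex-marker term).

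Basement membranes are sheets of collagen IV, laminin and nidogen that lie under vessel walls and beneath the meninges. Of 13 such genes 10 rose and 0 fell, with a median of 1.09. Col4a1, a chain of the main network, read 770.5, 706.8 and 826.2 against 1743.1, 1739.8 and 1897.0 (log2 change 1.23, SE 0.0802, limma adjusted p = 2.65e-05), and the groups are far apart. Its partner Col4a2 changed by 1.10, and Col4a5, a chain of specialised membranes, by 2.05, from 64.7, 51.8 and 60.2 to 191.8, 252.4 and 298.5. The laminin chains Lama2 (1.09), Lamc1 (1.06) and Lamb1 (0.91), the linkers Nid1 (1.18) and Nid2 (0.99), and Col15a1 (1.28) and Col18a1 (1.35), which anchor membranes to the tissue around them, were also called. Col4a6 read 143.1, 149.4 and 160.9 and Lama1 170.4, 143.4 and 159.6 in knockout, and both were blank on all 3 wild-type arrays. Lamb1 and the brighter Col18a1 probe set lost their calls when single arrays were left out, and 5 of the 10 kept theirs with the sex-marker term.

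Other matrix genes rose in part. Of 19 small leucine-rich proteoglycans and matricellular proteins 7 rose (median 0.71). Dcn, which coats collagen fibrils, read 322.4, 319.3 and 388.2 against 768.7, 880.7 and 853.8 (log2 change 1.28, SE 0.102, limma adjusted p = 9.1e-05). Ccn2 (1.18), a growth factor-binding matrix protein that also marks cortical subplate neurons, Bgn (1.01) and Fmod (1.01) followed, and Fmod was lost without knockout replicate 2 (limma adjusted p = 0.0576, and 0.157 with the sex-marker term). Of 16 matrix proteases and inhibitors 4 rose (median 0.31): the serpin Serpinf1 (1.36), the membrane protease Mmp14 (0.64), tissue plasminogen activator Plat (0.64) and Timp3 (0.55). Serpinf1 read 227.5, 257.2 and 206.1 against 620.4, 575.3 and 567.2, and a different probe set of it was blank in wild type and read 531.2, 489.9 and 433.2 in knockout. It was also the sole member of the 4 that kept its call whichever array was left out.

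Among genes that mark meningeal fibroblasts and the arachnoid barrier most of those tested were called higher. Of 21 tested 14 rose and 0 fell, with a median of 0.97. Slc6a13, a GABA and taurine transporter of the meninges, read 107.0 and 127.1 on the 2 wild-type arrays that listed it and 525.2, 394.1 and 414.7 in knockout (log2 change 1.92, SE 0.155, limma adjusted p = 0.00018). Cxcl12 (1.70), Islr (1.62) and Foxc1, a transcription factor needed to form the meninges (1.60), came next. Foxc1 was near the lower end of the signals, at 40.0 and 40.2 against 133.4, 105.0 and 129.0. Aldh1a2, which makes retinoic acid in the meninges, read 64.3, 99.4 and 96.4 against 234.2, 239.1 and 245.3 (1.49). A further 5 markers were blank in wild type and listed on all knockout arrays, among them Tbx18 (191.2, 155.9 and 191.6) and Slc22a6 (124.0, 94.6 and 92.7). Summed over the 18 markers listed on 6 arrays, the signal was 8449 to 8835 in wild type and 13369 to 14625 in knockout. Every meningeal sum in knockout is thus above every wild-type sum; the part of these cells in the matrix results was not tested. With the sex-marker term 10 of the 14 were called.

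Vessel genes rose in smaller numbers. Of 12 pericyte and smooth muscle genes 4 rose (median 0.54): the growth factor receptor Pdgfrb (1.32), the myosin kinase Mylk (1.02), Vtn (1.01) and Myl9 (0.64). Vtn, an adhesion protein made by pericytes, read 545.8, 659.7 and 604.3 against 1286.9, 1215.9 and 1132.0 and kept its call in every alternative. Pdgfrb, Mylk and Myl9 lost theirs when single arrays were left out, with limma adjusted p up to 0.121, 0.105 and 0.156, and with the sex-marker term they had 0.171, 0.256 and 0.425. Of 22 endothelial and blood-brain barrier genes 6 rose (median 0.41), led by Cd34 (0.93), the receptor Tie1 (0.89), the junction protein Cdh5 (0.83) and the lipid transfer protein Pltp (0.73). Cldn5, the main tight junction protein of brain vessels, read 527.0, 535.4 and 595.8 against 763.0, 825.5 and 722.3, a change of 0.48. Pltp and Itm2a kept their calls whichever array was left out, while Cdh5, Tie1, Cd34 and Cldn5 did not, and with the sex-marker term 0 of the 6 were called. The summed signal of the endothelial markers was 4606 to 5298 in wild type and 6591 to 7284 in knockout, and that of the pericyte and smooth muscle markers 2596 to 2728 and 3644 to 3947.

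Signalling genes were read by pathway. In the insulin-like growth factor system 4 of 11 rose (median 0.28). The ligand Igf2, a growth factor imprinted in most tissues, read 1099.3, 963.6 and 1059.0 against 2357.5, 2241.3 and 1970.3 (log2 change 1.07, SE 0.0854, limma adjusted p = 9.1e-05). The binding proteins Igfbp6 (0.89), Igfbp2 (0.69) and Igfbp4 (0.45) also rose, and Igf2 and Igfbp2 kept their calls in every alternative. Of 21 genes of TGF-beta and BMP signalling 7 rose and 0 fell (median 0.20). Among them were the ligands Bmp7, at 46.3, 50.8 and 47.0 against 146.0, 125.7 and 135.3 (1.50), and Bmp6 (1.42), the receptor Tgfbr2 (1.05) and the targets Tgfbi (1.75), Id1 (1.02), Id3 (0.92) and Id4 (0.47). The 7 comprise ligands, a receptor and targets, and Id4 was the only 1 of the 7 that lost its call when single arrays were left out. With the sex-marker term Bmp6, Id1, Id3 and Id4 lost their calls. Of 17 Wnt genes the ligand Wnt5a (1.25) and the receptors Fzd6 (0.81) and Fzd7 (0.77) rose (median 0.15), and each lost its call when single arrays were left out, with limma adjusted p up to 0.0608, 0.0639 and 0.116; with the sex-marker term these were 0.0984, 0.226 and 0.302. Of 14 retinoid and detoxification genes 5 rose and the receptor gene Rxrg fell (median 0.20). Rxrg rests on 2 arrays of each genotype, 135.4 and 110.9 against 64.2 and 41.6, and its call was lost in 9 of 17 alternatives, among them those without wild-type replicate 1 or 3 or knockout replicate 1 or 3 (limma adjusted p up to 0.235, and 0.433 where blanks were replaced by a low value). The rises were Ephx1, an epoxide hydrolase, from 121.9, 101.1 and 105.7 to 301.9, 298.4 and 340.3 (1.52), Aldh1a2, Mgst1 (0.86), Gsta4 (0.80) and Fmo1 (0.63). Cyp1b1, which oxidises retinoids and steroids, was blank in wild type and read 245.9, 297.2 and 242.9 in knockout, and Aldh1a1 was blank in wild type and read 152.1, 174.8 and 168.2. Mgst1 lost its call without wild-type replicate 1 or 2 or knockout replicate 1 or 2 (limma adjusted p up to 0.16, and 0.547 with the sex-marker term).

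Microglia are the macrophages of the brain, and they carry complement and lysosomal genes. Of 22 genes of microglia and macrophages 10 rose and 0 fell, with a median of 0.61. Mrc1, a marker of the macrophages of the brain's borders, read 166.3, 122.3 and 167.4 against 352.1, 413.7 and 336.7 (log2 change 1.28, SE 0.147, limma adjusted p = 0.000976). Csf1r, the receptor on which microglia depend, read 1204.3, 1069.8 and 1281.5 against 2024.9, 1905.3 and 1758.8 (0.68), and the groups do not overlap. The protease Ctss (1.06), blank on wild-type replicate 3, the complement subunit C1qa (0.88) and the platelet factor Pf4 (0.82) were called too. C1qa, Csf1r, Ctss and Mrc1 kept their calls whichever array was left out, the other 6 did not, and with the sex-marker term 1 of the 10 was called. The summed signal of the list's members was 6701 to 7482 in wild type and 9466 to 10409 in knockout. Of 8 interferon and antigen presentation genes 4 rose (median 0.57): Ifitm3 (0.95), Ifitm2 (0.84), Ifitm1 (0.75) and B2m (0.71), of which B2m and Ifitm1 lost their calls when single arrays were left out (limma adjusted p up to 0.0766 and 0.0902, and 0.304 and 0.268 with the sex-marker term). Of 12 complement and coagulation genes 4 rose (median 0.38), among them the protease inhibitor A2m (1.42) and thrombomodulin, Thbd (1.35), which read 51.9, 54.1 and 69.0 against 140.1, 166.7 and 138.2. Thbd alone of these 4 kept its call whichever array was left out.

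Astrocyte genes moved in part. Of 29 tested 6 rose and 0 fell, and the median was 0.12. The gap junction genes Gjb6 (0.97) and Gja1 (0.63) and the metallothioneins Mt2 (0.68) and Mt1 (0.61) had the largest changes; Gjb6 is also made in the meninges. Gja1, the main connexin of astrocytes, read 1120.1, 1130.3 and 952.1 against 1726.1, 1909.8 and 1367.2, and its call was lost without wild-type replicate 3 or knockout replicate 1 or 2 (limma adjusted p up to 0.0765, and 0.329 with the sex-marker term). The water channel gene Aqp4 changed by 0.53 with its brighter probe set, and both of its probe sets were called. Entpd2, an astrocyte gene that splits extracellular ATP, was listed in wild type only, at 120.0, 139.8 and 181.7. Of 17 genes of reactive glia 7 rose and 0 fell (median 0.72). Lgals1 (1.54), S100a6 (1.14), Anxa2 (1.05) and Tgm2 (0.95) led them, and Vim, the intermediate filament of immature and reactive glia, read 612.9, 580.9 and 664.1 against 976.4, 1160.2 and 1037.7 (0.77). Fibroblasts also express these 5 genes. With the sex-marker term 0 of the 6 astrocyte genes and 3 of the 7 reactive genes were called, and Tgm2 lost its call without each array but wild-type replicate 3 (limma adjusted p up to 0.0877, and 0.182 with that term).

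**Figure D3:**
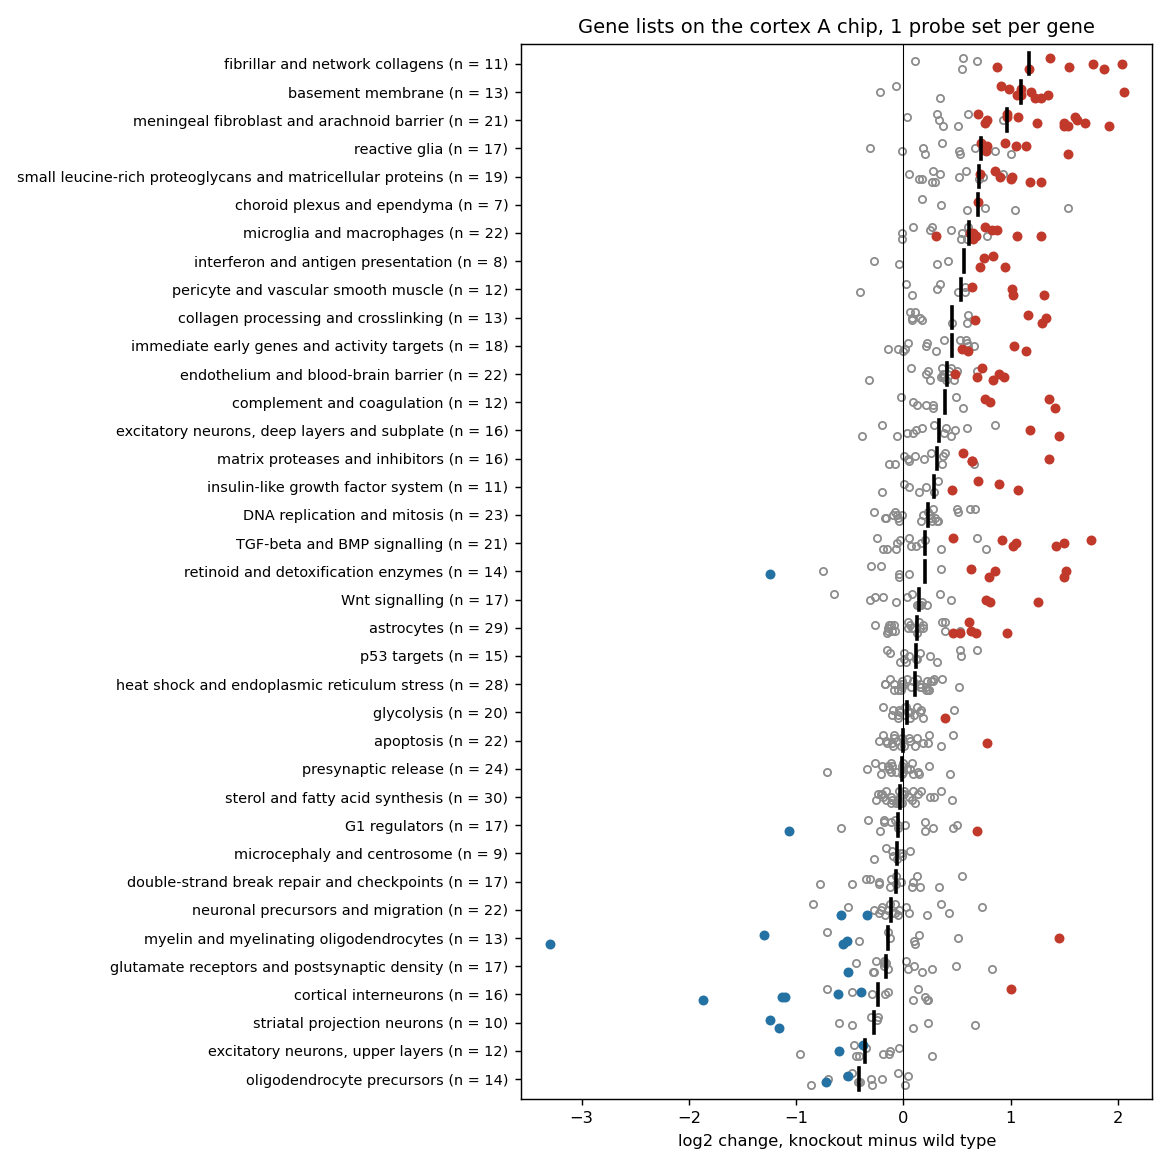
Log2 change, knockout minus wild type, of each gene of the 37 lists with at least 7 genes tested, sex-linked genes left out; filled red and blue circles are genes called up and down, open circles genes not called, and the black bar is the median of a list. Collagens, basement membrane and meningeal genes sit at the top with medians of 1.17, 1.09 and 0.97, and oligodendrocyte precursor genes at the bottom with -0.42.

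In the oligodendrocyte lineage 6 tested genes were called lower, Mbp with the largest change, while most others did not pass. Of 13 myelin genes 4 fell and 1 rose, with a median of -0.14. Beside Mbp (-3.30 by the brightest probe set), Ugt8a, which makes the myelin lipid galactocerebroside, read 99.9, 72.6 and 86.2 against a blank, 41.1 and 29.3 (-1.30). Tspan2 changed by -0.56 and the deacetylase gene Sirt2 by -0.52. Mag read 100.8, 89.4 and 95.0 and Mobp 80.9, 66.1 and 94.7 in wild type, and both were blank in knockout; both encode proteins of the myelin sheath. The member that rose was the lysophosphatidic acid receptor gene Lpar1, from 101.2, 82.9 and 91.3 to 279.7, 272.4 and 203.7 (1.45, SE 0.157, limma adjusted p = 0.000741). Lpar1 is also on the list of deep-layer and subplate genes. Mbp and Lpar1 kept their calls in every alternative, while Ugt8a and Tspan2 lost theirs when single arrays were left out (limma adjusted p up to 0.119 and 0.0884; Tspan2 had 0.275 with the sex-marker term). Of 14 oligodendrocyte precursor genes 0 rose and 2 fell, and the median was -0.42. Olig1, a transcription factor that drives the lineage, read 1347.0, 1156.2 and 1272.4 against 868.1, 964.2 and 814.8 (-0.51), and C1ql1 changed by -0.72. Both lost their calls without wild-type replicate 1, with limma adjusted p of 0.054 and 0.168, and with the sex-marker term (Olig1 also without the variance trend, 0.064). Cnp is on the myelin list by its brightest probe set and so is not among the 4.

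Among cortical interneuron genes 16 were tested; 5 fell, 1 rose, 10 did not pass and 6 lay above 0, with a median of -0.23. Dlx1, a transcription factor that specifies interneurons, read 215.6, 210.3 and 234.1 in wild type and 60.9, 59.8 and a blank in knockout (log2 change -1.86, SE 0.15, limma adjusted p = 0.00018). Lhx6 read 250.8, 210.8 and 209.2 against 111.0, 118.8 and 83.7, and Nxph1 270.9, 260.4 and 211.0 against 117.8, 127.7 and 94.2; in both the lowest array was knockout replicate 3. Gad1, which makes GABA, changed by -0.61 and Satb1 by -0.40. Dlx5 read 83.4, 58.8 and 101.0, Dlx2 79.1, 62.4 and 48.7 and the peptide gene Vip 197.7, 216.4 and 124.2 in wild type, and all 3 were blank on every knockout array. The member that rose was Nr2f2 (1.00), a transcription factor also expressed in vessels. Lhx6 and Nxph1 kept their calls in every alternative, and Gad1, Satb1 and Nr2f2 did not. Dlx1 kept its call in every alternative that gave a value, but the sex-marker term gave none. Its knockout values come only from the 2 arrays that listed Y-linked genes, so genotype and sex cannot be told apart for it. The vesicular GABA transporter gene Slc32a1 read 383.4, 252.1 and 355.5 against 232.0, 206.8 and 162.4 (-0.71, limma adjusted p = 0.0624) and did not pass.

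The lists of projection neurons had medians that differed in sign. Called lower were 20% of striatal and 16.7% of upper-layer genes, against 0.687% of all genes tested. Of deep-layer and subplate genes 12.5% were called higher, against 2.67%. Of 10 striatal genes Ppp1r1b, a phosphatase inhibitor of dopamine-responsive neurons, changed by -1.16, and Rxrg, described above, by -1.25 (list median -0.28). Both were blank on wild-type replicate 2, and Rxrg also on knockout replicate 1; where blanks were replaced by a low value, Ppp1r1b changed by -0.10 (limma adjusted p = 0.966). Of 12 upper-layer genes Pou3f1, a transcription factor (-0.61), and Mef2c (-0.38) fell and 0 rose (median -0.36). Mef2c read 3197.9, 3361.8 and 3140.7 against 2583.2, 2390.8 and 2506.7, so that a change of this size separated the groups at a high signal. Both were lost without knockout replicate 2 (limma adjusted p = 0.077 and 0.0535, and 0.329 and 0.146 with the sex-marker term). Of 16 deep-layer and subplate genes Lpar1 (1.45) and Ccn2 (1.18) rose and 0 fell (median 0.33), and other cell types also express both. Of 22 genes of neuronal precursors and migration 2 fell (median -0.12): Dcx, which stabilises microtubules in migrating neurons, and the surface gene Cd24a (-0.34). By its brightest probe set Dcx read 1137.3, 1297.8 and 1240.3 against 874.3, 738.4 and 841.1 (-0.58); 2 of its 3 tested probe sets were called. A further Dcx probe set read 75.8, 119.0 and 103.0 in wild type and was blank in knockout. With the sex-marker term 0 of the 2 upper-layer and 0 of the 2 precursor genes were called.

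Synaptic genes were mostly not called, while 22.2% of the activity genes were called higher, against 2.67% of all genes tested. Of 24 genes of presynaptic release 0 passed (median -0.02), and of 17 genes of glutamate receptors and the postsynaptic density Gria1, an AMPA receptor subunit, fell (-0.51), from 979.1, 1022.8 and 976.7 to 767.2, 656.4 and 665.7. The 18 immediate early and activity-regulated genes had a median of 0.45, and 4 rose: the transcription factor Klf4 (1.14), the neurotrophin Bdnf (1.03) and the phosphatases Dusp1 (0.60) and Dusp6 (0.54). Klf4 was dim, at 30.8, 25.3 and 28.9 against 80.9, 64.4 and 46.7. All 4 lost their calls when single arrays were left out and with the sex-marker term, and Fos, Fosb, Junb and Egr2 did not list enough signals to be tested.

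The pathways in which Brca1 is known to act gave few calls. At the share called over all genes tested (3.35%), lists this short would hold few too. Of 30 genes on the chip for repair of double-strand breaks and for checkpoints 17 were tested and 0 passed, and the median was -0.07; Uimc1, a partner of the Brca1 complex, read 144.2, 160.0 and 140.9 against 192.1, 253.0 and 209.1 (0.55, limma adjusted p = 0.0631). Of 15 p53 targets 0 passed (median 0.11), with the lowest p for Trp53inp1 (0.69, limma adjusted p = 0.0812); Cdkn1a and Bbc3 were not tested for want of signals. Of 22 apoptosis genes the initiator caspase gene Casp8 rose, from 59.5, 48.4 and 57.4 to 83.6, 100.4 and 98.8 (0.78, limma adjusted p = 0.0384), and each of the 6 arrays left out ended its call (up to 0.156, and 0.248 with the sex-marker term). Of 23 genes of replication and mitosis 0 passed (median 0.22), and Cdk1, the mitotic kinase, changed by 0.62 (limma adjusted p = 0.0955). Among 17 regulators of G1, Mycn fell and the kinase inhibitor Cdkn1c rose (0.69). Cdkn1c lost its call without each array but wild-type replicate 3, and with the sex-marker term. Of 9 microcephaly and centrosome genes 0 passed (median -0.06). Members not tested are not covered by these counts, and a miss of the threshold does not show that the levels were equal.

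Housekeeping families stayed near the centre of the distribution. The medians were 0.03 for 45 cytosolic ribosomal genes, 0.03 for 73 mitochondrial ribosomal genes, -0.02 for 76 genes of the respiratory chain and ATP synthase and 0.04 for 35 proteasome genes. The call among the cytosolic ribosomal genes was Rps27l (0.41, limma adjusted p = 0.0499), which lost its call in 13 of 19 alternatives. The call in the respiratory chain was Ndufa12, a subunit of complex I, which read 1008.1, 1027.1 and 1049.1 against 1722.6, 1701.3 and 1582.2 (log2 change 0.70, SE 0.0684, limma adjusted p = 0.000355) and was called in every alternative. Another Ndufa12 probe set changed by 0.56, and the remaining set by -0.01 (limma adjusted p = 0.966), so the gene's probe sets disagree. The 30 genes of sterol and fatty acid synthesis, which supply myelin, gave 0 calls and a median of -0.03. Of 20 glycolysis genes the lactate transporter gene Slc16a1 rose (0.38, limma adjusted p = 0.0425) and lost its call in 11 of 19 alternatives. The 28 genes of heat shock and endoplasmic reticulum stress gave 0 calls (median 0.11). The 4 blood genes gave 0 calls (median -0.20).

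Genes of the choroid plexus, which makes the cerebrospinal fluid, and of the ependyma that lines the ventricles were tested in 7 cases. All 7 changes were above 0, 5 had an unadjusted p under 0.05, the median was 0.69 and Igfbp2 alone was called. Folr1, a folate receptor of the choroid plexus, read 37.0, a blank and 73.5 against 95.3, 186.6 and 195.2 (1.54, limma adjusted p = 0.055). Summed over the 4 genes listed on 6 arrays, the signal was 3059.9 to 6264 in wild type and 6951 to 7611 in knockout, with no overlap. The part of these cells in the other results was not tested.

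Many called genes lie outside these lists. Of 272 called genes 150 are on a list or in a family and 122 on none. The following were chosen after their values were seen, for their size or for agreement of several probe sets. Bicc1, an RNA-binding protein, read 106.0, 106.8 and 93.2 against 238.7, 254.7 and 215.8 (1.21), and Laptm4a, a lysosomal membrane protein, 595.3, 644.0 and 483.3 against 1399.8, 1130.1 and 1055.6 (1.06). Txnip, a glucose-responsive inhibitor of thioredoxin, changed by 0.93 and Smo, the signal transducer of the Hedgehog pathway, by 0.83. Cytoskeletal and membrane genes of non-neuronal cells among the rises included Ahnak (1.09), Msn (0.99 and 0.77 by 2 probe sets) and Myh9 (0.75 and 0.60). On the other side, Tcf4, a transcription factor of neurons and progenitors, was called in 4 of its 5 tested probe sets, at -0.41, -0.42, -0.44 and -0.46. The brightest of them read 1796.4, 1823.5 and 1703.8 against 1251.4, 1366.3 and 1367.2. Mapt, the microtubule protein tau, was called in 2 of its 3 tested probe sets, at -0.34 and -0.30. The X-linked Rbmx was also called in 2 of 3, at -0.79 and -0.50. Stmn4 changed by -0.40 and the lipase Lpl by -0.64 and -0.51. The noncoding RNA Meg3 was called lower by 2 of its 5 tested probe sets, and another set, at 346.6, 502.0 and 1002.4 against 640.2, 1341.7 and 1142.0, had a change of 0.83 that did not pass (limma adjusted p = 0.278). Over the whole chip, 113 genes had a called probe set and at least 1 other tested, and in 104 of them all probe sets moved to the same side; 35 had all of theirs called, and 0 had calls on both sides.

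Some probe sets could not be given a change because a genotype was blank. There were 65 listed on all 3 knockout arrays and on no wild-type array, and 43 with the reverse pattern, against 8181 blank on all 6 arrays. The brightest of the former were Serpinf1, Cyp1b1 and Tbx18, with the values given above, Fam210b (169.9, 186.5 and 214.3) and Cp, the copper oxidase ceruloplasmin (237.3, 175.9 and 165.0). The brightest of the latter were St8sia2, an enzyme that adds polysialic acid to adhesion proteins of young neurons (316.5, 270.6 and 292.1), Vip, Hr (141.4, 146.7 and 138.7), Entpd2 and Banp (141.5, 120.7 and 104.8). For St8sia2 the tested probe set fell as well. These are descriptions with no test.

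The same probe sets were read in 3 wild-type and 3 knockout samples titled rest, whose tissue the labels give as P7 brain and no further. There 67 of 21407 probe sets were called (0.313%; 0.145% up, 0.168% down). Of the 271 probe sets that rose in cortex and were tested there 19 were called up, and of 87 that fell 6 were called down. The median change of the 271 was 0.81 in cortex and 0.32 in rest, and that of the 87 was -0.62 and -0.20; cortex chose these probe sets, so a smaller median elsewhere is built into the choice. Col3a1 read 1432.6, 739.6 and 1021.6 against 2931.0, 2543.5 and 2828.6 in rest (log2 change 1.43, limma adjusted p = 0.0221). Mbp read 6786.5, 6168.7 and 6005.1 against 232.2, 1456.6 and 4209.6 there (-2.49, limma adjusted p = 0.298), so that its knockout arrays spread far more widely than in cortex. Dcx fell in both tables, with changes of -1.03 and -0.92 (limma adjusted p = 0.025 in rest). In a joint fit of 11959 shared probe sets the change differed between the tables for 8 (0.0669%). The design names 3 animals per genotype, so cortex and rest may share animals, and the fit treated all arrays as independent. Rest was read on another array type, so tissue and array type cannot be told apart. Xist changed by -2.37 in rest (SE 0.97), and the fit had no sex term. Itih5 rose more in cortex (2.48 against 1.50, difference -0.98, limma adjusted p = 0.0358), and so did Lgals1 (1.54 against 0.66, difference -0.88, limma adjusted p = 0.0358). Lpar1 rose in cortex by 1.45 and changed by -0.58 in rest, a difference of -2.03 (SE 0.232, limma adjusted p = 0.00613). Falls in cortex that differed from rest were Tmtc4 by its brighter probe set (-0.83 against 0.03, limma adjusted p = 0.0358) and Kcnip1, a subunit of potassium channels (-0.60 against 0.18, limma adjusted p = 0.0487). The other Tmtc4 probe set changed by -1.08 and 0.09, and that difference did not pass (limma adjusted p = 0.153). The remaining 3 probe sets read Gsn, at 0.33 and 0.18 in cortex against -1.47 and -1.39 in rest, and the noncoding RNA Malat1, at 0.56 against -1.06. Nxph1 changed by -1.13 in cortex and -0.02 in rest, but the difference did not pass (limma adjusted p = 0.0786). On the B chip, which reads cortex samples of the same replicate numbers with other probe sets, 31 of 7838 were called (0.396%). There Nxph1 read 247.9, 279.6 and 223.5 against 126.5, 199.3 and 253.9 (-0.43, limma adjusted p = 0.787), with overlapping groups, unlike its probe set on the A chip. A B chip probe set of Itih5 was blank in wild type and read 547.8, 381.1 and 279.4 in knockout.

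**Figure D4:**
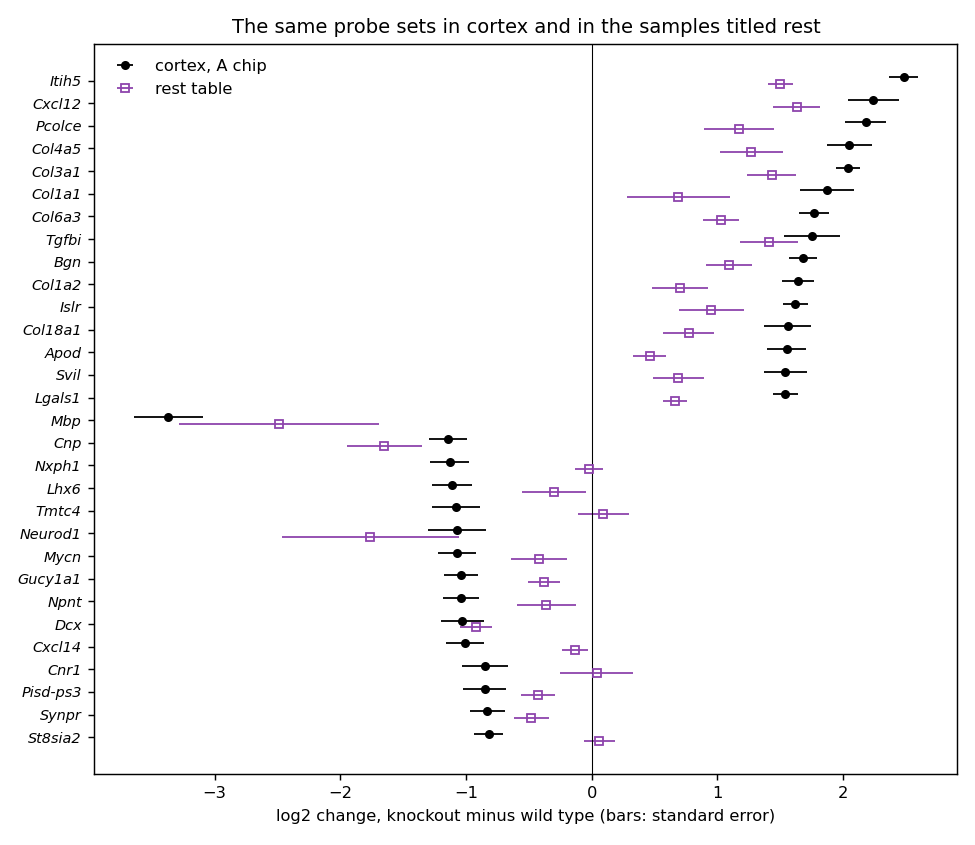
Log2 change, knockout minus wild type, with its standard error for the 30 genes with the largest changes in cortex (filled circles) and for the same probe sets in the samples titled rest (open squares). All 15 rises are above 0 in both tables and smaller in rest, while Nxph1, Tmtc4, Cnr1 and St8sia2 lie near 0 in rest.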

How the data were processed

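Total RNA, extracted with TRIZOL per the labels' protocols, was hybridised by the standard Affymetrix protocol. The deposited values are intensity values on a linear scale, probe set signals that the authors made with MAS5, per the submitters' processing notes; its version and settings, and why cells are blank, are not given in the sources used here. A blank in a dim gene may hide any low level, and changes of dim genes carry the background that MAS5 leaves in. No further scaling was needed, since the factors that would equalise the A chip arrays lay between 0.9942 and 1.003.

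Signals were transformed to log2 with no offset, blanks were left out, and knockout was compared with wild type by a linear model per probe set in R 4.3.3 (limma 3.58.1; its moderated test let the variance follow the mean signal). The p-values were adjusted by Benjamini-Hochberg over all 12065 probe sets, with a threshold of 0.05. Fits for the B chip and the rest table used the same steps. The difference between cortex and rest was a contrast in a joint fit of group means, with no term for animal or sex. The script was tested on simulated data. Symbols came from the platform annotation: 20380 probe sets of the A chip have 1 gene, 691 several and 1555 none. The series' design names 3 animals per genotype, and precision is limited by that number of arrays.

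The genes named are Brca1, Xist and Y-linked genes, the 15 largest called changes each way with 1 symbol, listed on 6 arrays and with groups that do not overlap, up to 4 called members of a list or else those with the lowest p to make 2, the 5 brightest probe sets blank in a genotype, and probe sets of a gene that differ in call. Others are marked or are further called members of a list, chosen after their values were seen. The members, the 39 lists and the 27 symbol families were chosen with earlier results of these data known. The alternatives were 3 scalings, offsets of 16 and 64, 2 filters, blanks set to a low signal, a variance without the trend, a robust variance, weights per array, the replicate block, a sex-marker term, leaving out each array and an adjusted p of 0.10.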

Additional observations from a re-analysis of the deposited data

Results flagged for a closer look

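The change in knockout differed between cortex and the samples titled rest for 8 of 11959 shared probe sets in the joint limma fit. That fit had no term for animal or sex, and the array types differ. Itih5 rose by 2.48 (log2) in cortex and 1.50 in rest, so that rest minus cortex was -0.98 (SE 0.156, limma adjusted p = 0.0358). Lgals1 rose by 1.54 and 0.66, a difference of -0.88 (SE 0.135, limma adjusted p = 0.0358). For Lpar1 the values were 1.45 and -0.58, a difference of -2.03 (SE 0.232, limma adjusted p = 0.00613). For Gsn 2 probe sets differed, by -1.80 (SE 0.236, limma adjusted p = 0.00987) and -1.57 (SE 0.198, limma adjusted p = 0.00928), and Malat1 by -1.63 (SE 0.257, limma adjusted p = 0.0358). Tmtc4 changed by -0.83 and 0.03, a difference of 0.86 (SE 0.134, limma adjusted p = 0.0358), and Kcnip1 by -0.60 and 0.18, a difference of 0.78 (SE 0.13, limma adjusted p = 0.0487). Outside the tested probe sets, 65 were listed on all 3 knockout arrays and blank on all 3 wild-type arrays, against 43 with the reverse pattern; their median signals were 83.5 and 66.7.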

How the results depend on the processing

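Of the 359 probe sets called, 157 were called whichever array was left out (127 up, 30 down) and 68 under all 19 alternative fits that gave a value. Leaving out single arrays gave 181 to 310 calls, 137 to 239 up and 37 to 71 down. The sex-marker term gave 81 (61 up, 20 down), of which 72 were among the first calls. An adjusted p of 0.10 gave 585 (414 up, 171 down). Without a variance trend 50 were down. With the replicate block 312 were called (238 up, 74 down). The signals showed no pairing by replicate number, as the correlations of same-numbered arrays' deviations were 0.011, 0.017 and -0.01. These values cannot show whether same-numbered animals were matched in other ways. In the other fits the counts stayed within 1.5 times. No called probe set changed direction in any fit except 1 with blanks set to a low signal. The main limits are 3 arrays per genotype, the overlap of genotype with sex, which leaves 1 knockout array of the wild type's sex, and blanks, which keep 8181 probe sets out on all arrays.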
